A study of Mus musculus with 6 samples.

Results

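Endothelial cells line the vessels of the spinal cord, and 90 Drop-seq barcodes carried their transcripts among 3360 retained barcodes from 6 libraries (2.68%). Barcodes were retained when they showed no fewer than 200 genes and no more than 20% of transcripts from the mitochondrial genome. Endothelial barcodes were chosen by transcript counts and held at least 3 unique molecular identifiers (UMIs, each counting 1 captured transcript) summed over 8 genes, Flt1, Itm2a, Slco1a4, Slco1c1, Gpr116, Abcb1a, Cldn5 and Ly6c1. At least 2 of these genes had to be detected, and at most 1 UMI was allowed over the T-cell and monocyte genes Cd3d, Trbc2, Ms4a4b, Ccr2 and F13a1. The rule uses measured values, so the levels of these genes describe the selection, and no test result is given for them.

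The study profiled whole spinal cords of mice in 3 groups of 2 libraries. WT-Veh is wild type with vehicle, SOD1-Veh carries the SOD1-G93A genotype and received vehicle, and SOD1-Nec carries SOD1-G93A and received Necrostatin-1s, which inhibits the necroptosis kinase RIPK1. SOD1-G93A is a mutant form of human superoxide dismutase 1 whose transgene gives mice a motor neuron disease used as a model of amyotrophic lateral sclerosis. Per the labels the cords were digested with Accutase, freed of myelin and passed over a density gradient, so the recovered barcodes need not reflect the makeup of the intact vessel. The labels give neither age nor sex, nor the promoter of the transgene, nor whether libraries of a group are separate animals, so each p-value reflects library-to-library spread alone, which may be technical.

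In the central nervous system, endothelial cells form the blood-brain and blood-spinal cord barrier. Tight junctions seal the gaps between cells, transporters carry glucose and amino acids in, and efflux pumps return drugs and toxins to the blood. Wnt signals from neural cells maintain this state, ETS-family transcription factors such as Erg and Fli1 maintain endothelial identity, and pericytes wrap the capillary wall.

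The promoters of the selection genes are shown because ETS factors, whose RNA was present in these barcodes, recognise a GGAA core. Among 250-base windows upstream of RefSeq starts (mouse build GRCm38.p6), AGGAAG on either strand was found for 7 of the 8 selection genes, in 70% of their 10 windows, against 29.5% of 32851 windows of all genes. The Flt1 window lies at chr5:147726012-147726261 on the minus strand and the Abcb1a window at chr5:8566841-8567090 on the plus strand. Capitals mark AGGAAG or its reverse complement CTTCCT.
Flt1: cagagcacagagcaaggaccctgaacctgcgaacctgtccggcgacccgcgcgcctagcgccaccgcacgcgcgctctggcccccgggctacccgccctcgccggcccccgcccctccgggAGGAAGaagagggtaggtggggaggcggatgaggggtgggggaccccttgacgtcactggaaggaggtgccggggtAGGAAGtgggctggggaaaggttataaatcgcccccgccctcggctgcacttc
Abcb1a: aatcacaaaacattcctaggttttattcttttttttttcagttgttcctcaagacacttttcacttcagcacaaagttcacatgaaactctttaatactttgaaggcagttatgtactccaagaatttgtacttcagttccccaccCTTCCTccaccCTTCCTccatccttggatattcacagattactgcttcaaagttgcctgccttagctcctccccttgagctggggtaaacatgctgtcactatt
Each window held 2 matches. A match of 6 letters describes the sequence only and was not tested as a binding site. Of the 20 leading genes described later, 14 matched an entry, and AGGAAG lay in 25% of their 16 windows. CTTTGA, the core recognised by the Wnt effectors of the TCF and LEF family, lay in 37.5% of those 16 windows, in 10% of the selection genes' windows and in 13.8% of all windows.

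The 90 barcodes held 113785 UMIs, with a median of 728 per barcode (range 295 to 7457) against 595.5 in the 3270 other retained barcodes. Each of the 6 libraries held 1508618 to 1767205 UMIs in all barcodes together. Tables numbered 1 list 18169 genes and those numbered 2 list 18650, and 17042 are in all of them. Between libraries, 81 barcode sequences occurred in more than 1 library, 1 of them among retained barcodes and 0 among the endothelial barcodes. The median mitochondrial share of endothelial barcodes was 14.8% in SOD1-Veh 2 and 5.78% to 10.1% in the 5 other libraries. A doublet caller marked 29 retained barcodes and 0 of these 90.

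Many of the 90 barcodes also carried RNA of other cells, which touches every result that follows. Neutrophil genes took at least 10% of the UMIs in 13 barcodes (13.7% to 45.9%, the next barcode 6.47%). Haemoglobin genes took at least 10% in 10 barcodes (12.2% to 63.3%, the next 3.36%). A microglia list took at least 2% in 24 barcodes (2.11% to 3.87%), a continuous range with 12 barcodes within 0.5 percentage points of the limit. In 791 microglial barcodes, retained barcodes outside the selection that were chosen on this list, the median was 3.09% and 545 reached 2%. Their 10th percentile was 0.716%, so an endothelial barcode under the 2% limit can still hold a share found in microglial barcodes. With 1 barcode in 2 kinds, 46 barcodes were mixed and 44 fell outside the 3 kinds. These limits were set after the data were seen. The 44 held 34243 UMIs, 30.1% of the total, and their median depth was 509 UMIs against 986, 734 and 1511 in the neutrophil, haemoglobin and microglial kinds. Even so, 87 of the 90 barcodes held at least 3 UMIs from the marker list of some other cell type. The same held for 3203 of the 3270 other retained barcodes, whose own type may be among those lists. This count therefore does not set the 90 apart.

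**Figure D1:**
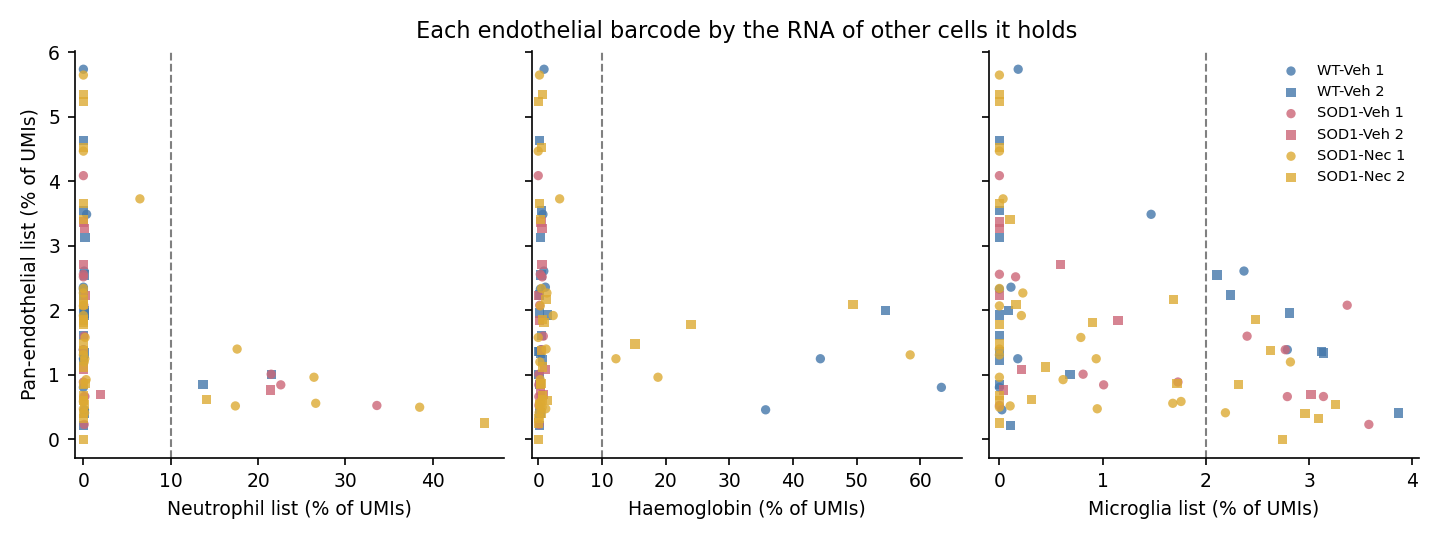
Each point is 1 endothelial barcode. The vertical axis gives the percentage of its UMIs from 49 pan-endothelial genes, the horizontal axes the percentage from neutrophil, haemoglobin and microglial genes, and dashed lines mark the limits of the mixed kinds (10%, 10% and 2%). Neutrophil and haemoglobin RNA leave a gap below the limit, whereas microglial RNA runs through it.

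The selection genes themselves varied from barcode to barcode. Flt1, the receptor that binds VEGF, was detected in 74 of 90 barcodes (302 UMIs) and Ly6c1, a surface protein of brain capillaries, in 62 (270 UMIs). Both occurred in 49 barcodes and neither in 3. Itm2a, a membrane protein, was detected in 55 barcodes, the organic anion transporters Slco1a4 and Slco1c1 in 45 and 42, and either of the pair in 62. The adhesion receptor Gpr116 (Adgrf5) was detected in 42 barcodes, the efflux pump Abcb1a (P-glycoprotein) in 41 and the tight-junction protein Cldn5 in 30. Transcripts of Ly6c1 and Ly6c2 are 96% identical over their last 300 bases, so their UMIs may be shared.

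As a background for these shares, 791 microglial barcodes with a median depth of 623 UMIs were used, since microglia should lack the genes. The rule set both sides of this contrast, because any barcode that met it was counted among the 90, so the shares describe the selection and do not measure background independently of it. Flt1 was present in 4.05% of them against 82.2% of endothelial barcodes, Ly6c1 in 1.90% against 68.9%, and Cldn5 in 0.506% against 33.3%. Levels of the selection genes in CPM (UMIs of a gene per 1000000 UMIs) differed between libraries. Flt1 was at 3072 and 4295 CPM in WT-Veh, 2188 and 1951 CPM in SOD1-Veh, and 3741 and 1144 CPM in SOD1-Nec. Ly6c1 was at 4127 and 2419, 1094 and 2926, and 3387 and 1854 CPM in the same order. Cldn5 was at 288 and 444, 117 and 244, and 758 and 434 CPM. Both SOD1-Veh libraries lay below both WT-Veh libraries for 5 of the 8 genes (Flt1, Cldn5, Gpr116, Abcb1a and Slco1c1), and these groups overlapped for Ly6c1, Itm2a and Slco1a4. In CPM scaled by library factors, as used for the tests below, Abcb1a overlapped too. On that scale 18.2% of the 347 tested genes showed this order. The 8 selection genes chose the barcodes, so their order carries no test.

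The threshold sat within a continuous range. Just inside it were 12 barcodes with 3 selection UMIs and 7 with 4. Just outside were 14 retained barcodes with 2 UMIs of 2 genes and 5 with at least 3 UMIs of 1 gene, and the exclusion genes removed 2. The median endothelial barcode held 8 selection UMIs (3 to 133), and 56 held at least 4 of the 8 genes. Selection genes made up a median of 1.085% of a barcode's UMIs (0.0532% to 4.63%). Below 0.25% were 5 barcodes of 1757 to 7015 UMIs, with at most 8 selection UMIs each. All 5 were mixed and together they held 18.7% of the UMIs of the 90.

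Endothelial genes outside the rule gave a check of the label. Of 49 pan-endothelial genes absent from the rule, 49 had a UMI in the 90 barcodes and 49 had a higher CPM there than in the other retained barcodes. Their summed level was 14760 CPM, against 1451 CPM in the other retained barcodes, 2054 CPM in microglial barcodes and 179.6 CPM in barcodes under 100 genes, which hold mostly free RNA. It was 27130 CPM in the 44 barcodes outside the mixed kinds. By library the sum was 17760 and 17670 CPM in WT-Veh, 10780 and 12840 CPM in SOD1-Veh, and 21590 and 10810 CPM in SOD1-Nec, against 1314 to 1537 CPM in the other barcodes of any library. In SOD1-Veh 2, 1 barcode with 21.4% neutrophil RNA held 60.5% of the UMIs. Without the deepest barcode of each library, a setting chosen after seeing the data, the sum was 26440 and 19010 CPM in WT-Veh, 13170 and 20790 CPM in SOD1-Veh, and 15320 and 13680 CPM in SOD1-Nec, so WT-Veh and SOD1-Veh overlapped. At least 1 pan-endothelial UMI was seen in 89 of the 90 barcodes and at least 5 in 78. The median barcode took 1.39% of its UMIs from this list, against 0.0594% for other retained barcodes. The comparison with the rest is a description, because the rule chose barcodes on genes that vary with these.

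Transcription factors and receptors of endothelial identity were detected at low depth. Erg and Fli1, ETS factors, had 33 UMIs in 22 barcodes and 14 UMIs in 13. The angiopoietin receptor Tek was at 123 CPM against 0.982 CPM in other retained barcodes, and its partner Tie1 at 149 CPM against 0.982 CPM. Emcn, a sialomucin of capillary and venous endothelium, was at 158 CPM against 0.328 CPM, and the junctional adhesion molecule Esam at 185 CPM against 2.29 CPM. Cdh5 and Pecam1, common endothelial markers, had 12 UMIs in 9 barcodes and 16 UMIs in 11.

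**Figure D2:**
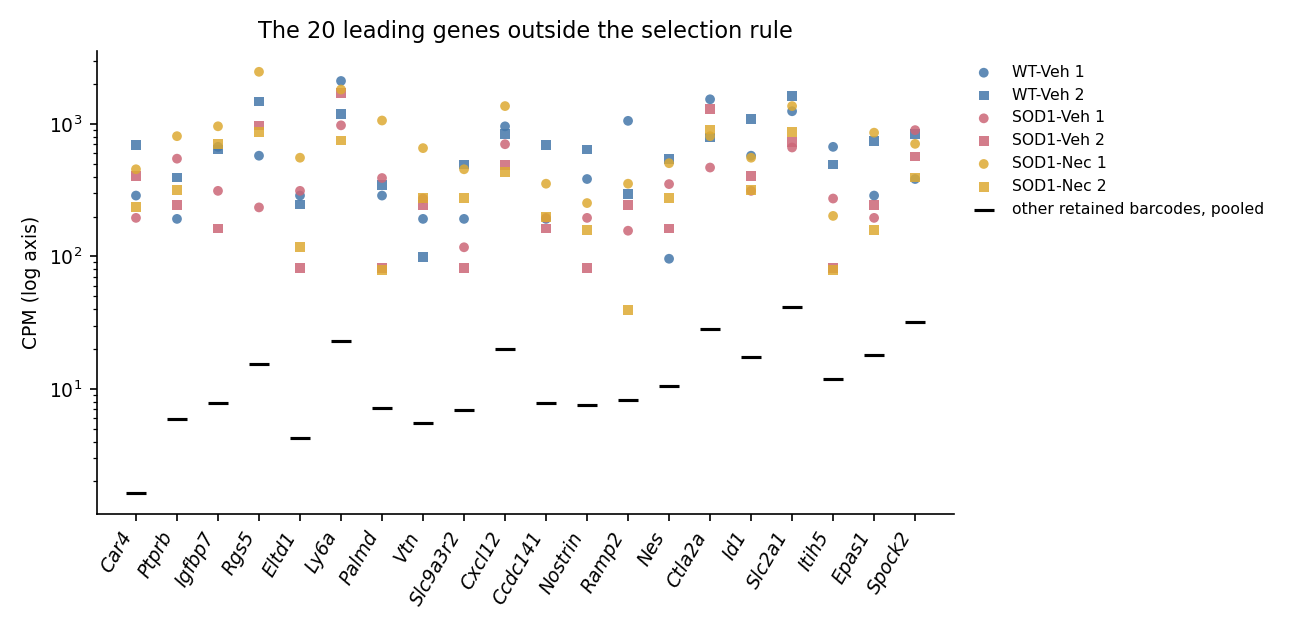
CPM (log axis) of the 20 genes outside the rule with the highest ratio of endothelial to other retained barcodes, by library (circles library 1, squares library 2, colours by group). Black bars give the other retained barcodes of all libraries pooled; every library lies above its bar for each of the 20 genes.

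The 20 leading genes outside the rule had a CPM 20.6 to 225.6 times that of other retained barcodes, and each was higher in 6 of 6 libraries. They were taken among genes with at least 30 UMIs in these barcodes and a UMI in every library. Car4, a carbonic anhydrase on the luminal face of capillaries, led with 369 CPM against 1.64 CPM. Ptprb, a phosphatase that restrains Tek signalling, was at 449 CPM against 5.90 CPM. Igfbp7, a secreted vascular protein, was at 589 CPM against 7.86 CPM. Ly6a was at 1293 CPM against 22.9 CPM, and Cxcl12, a chemokine of the vessel wall, at 783 CPM against 19.98 CPM. Id1, a target of BMP signals, was at 528 CPM against 17.4 CPM, and Epas1, the hypoxia-inducible factor abundant in endothelium, at 413 CPM against 18.0 CPM. Ly6a transcripts are 83.1% identical to Ly6c1 over the last 300 bases, which bears on how far that gene is independent of the rule.

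Genes of the barrier-transport list were prominent, though some of them, such as Spock2 and Pglyrp1, are not transporters. Of the 31 genes on that list, 30 had a UMI and 29 were higher than in other retained barcodes, with a summed level of 5954 CPM against 1762 CPM. Slc2a1, the glucose transporter GLUT1, was detected in 49 of the 90 barcodes at 1064 CPM against 41.3 CPM. Spock2 was at 660 CPM against 32.1 CPM and the taurine transporter Slc6a6 at 484 CPM against 68.5 CPM. Mfsd2a, a lipid transporter that restrains transcytosis, had 15 UMIs in 11 barcodes. Bsg (basigin), which escorts lactate transporters to the membrane, was the most widely detected of the pan-endothelial list, with 341 UMIs in 81 barcodes and 2999 CPM against 307 CPM. Pltp, a phospholipid transfer protein, was at 950 CPM against 51.1 CPM.

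Junction genes were sparse. Their list summed to 2111 CPM against 539 CPM over 20 genes, 15 of them higher than elsewhere. Cdh5, Pecam1 and Esam are also on the pan-endothelial list. The scaffold Tjp1 had 18 UMIs in 16 barcodes and the tight-junction protein Ocln 5 UMIs in 5. At this depth 4 of the 20 genes (Jam3, Marveld2, Cgn and Cldn12) were at 0, and 0 of 113785 UMIs allows up to 3 counts.

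Signalling lists showed the same contrast, but the lists share genes, so their sums are not independent of the pan-endothelial sum. Kdr, Tek, Tie1, Ptprb and Cdh5 are on both the pan-endothelial list and the VEGF and angiopoietin list. Ptprb alone gave 51 of the 154 UMIs of the VEGF and angiopoietin list. Sox17, Foxf2 and Foxq1 of the Wnt list and Eng of the TGF-beta list are pan-endothelial genes too. The Wnt and barrier-factor list was at 1302 CPM against 184 CPM, with 19 of 22 genes higher, among them the transcription factors Lef1 (20 UMIs in 16 barcodes) and Foxq1 (19 in 13). The VEGF and angiopoietin list was at 1354 CPM against 216 CPM, and the list of TGF-beta, BMP and Notch genes at 1926 CPM against 324 CPM. In the first list the receptor Kdr had 12 UMIs, the co-receptor Nrp1 28 and its relative Nrp2 2, the angiopoietin ligand Angpt1 had 6 in 2 barcodes, and the ligand Vegfa and the receptor Aplnr had 0. In the second list the receptors Notch1, Acvrl1 and Tgfbr2 had 19, 16 and 11 UMIs, and the BMP receptor Bmpr2 and the Notch ligand Dll4 had 0.

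Among vessel segments, all 12 capillary genes, 12 of 18 arterial genes and 12 of 17 venous genes were higher than in other retained barcodes. The rule itself uses Ly6c1, a surface protein of brain capillaries, so a lead of capillary genes may be partly set by the selection. The capillary list was at 3263 CPM against 586 CPM. The arterial list was at 1557 CPM against 443 CPM, but 72 of its 177 UMIs came from Mgp, a matrix protein of arterial walls, which was found in 8 barcodes with 31 UMIs in the highest. The venous list was at 2480 CPM against 1357 CPM, where 142 UMIs of Lcn2 and 50 of Icam1 made up most of its 282. Both genes are also expressed by other cells. Outside the mixed kinds the capillary list was at 5174 CPM and the arterial list at 3186 CPM. The venous list was at 1023 CPM there, with 5 UMIs of Lcn2 and 0 of Icam1. Fenestrated and lymphatic genes summed to 4 UMIs, with Plvap and Lyve1 at 0.

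**Figure D3:**
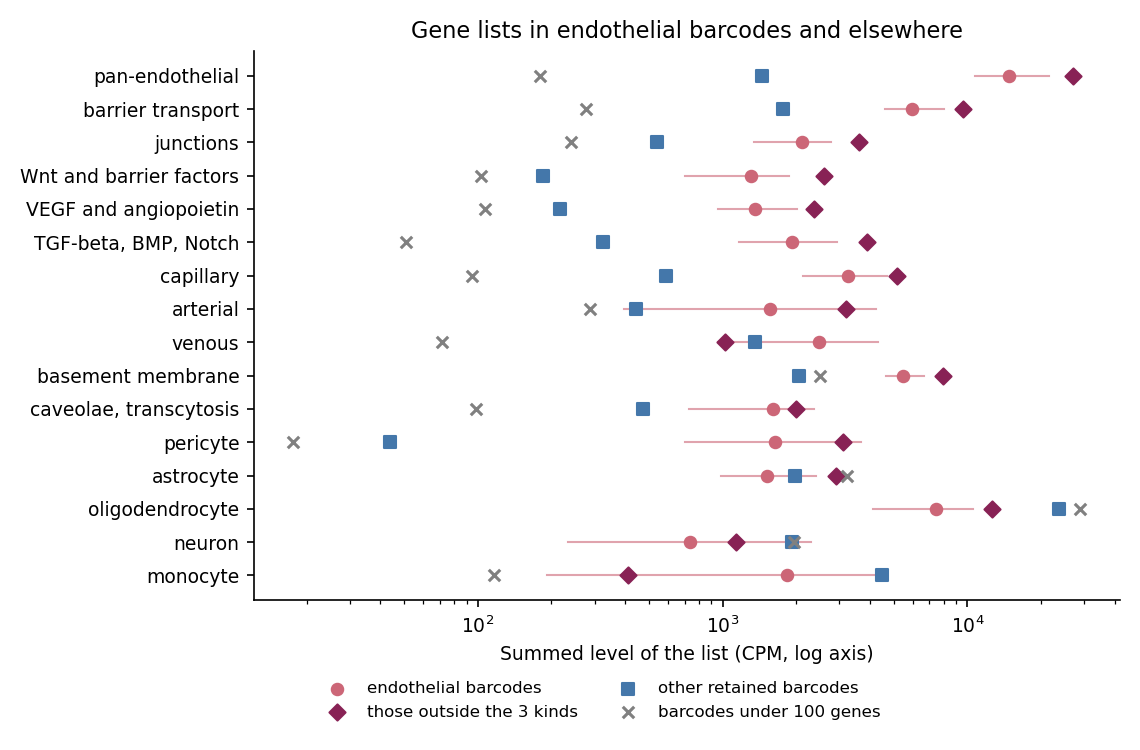
Summed CPM (log axis) of gene lists in the 90 endothelial barcodes (red circles, with the lowest and highest library as a line), in the 44 outside the 3 mixed kinds (dark diamonds), in other retained barcodes (blue squares) and in barcodes under 100 genes (crosses). Pan-endothelial, barrier and capillary lists lie right of the blue squares, and the oligodendrocyte list lies left of them. The monocyte list also lies left, but it holds Ccr2 and F13a1, which the rule limits.

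The vessel wall contributed as well. The pericyte list was at 1636 CPM against 43.9 CPM, a ratio of 37.3 and pericyte and smooth-muscle genes together gave 193 UMIs. At least 3 such UMIs were seen in 25 barcodes, 0 in 37, and 35 in the highest. Rgs5, a regulator of G-protein signalling abundant in pericytes, had 125 UMIs in 39 barcodes. Vtn had 34 UMIs in 18, whereas Pdgfrb, the defining pericyte receptor, had 5 UMIs in 3. Acta2, Myh11 and Tagln, which define smooth muscle, were at 0. The other two genes of the smooth-muscle list were detected, Myl9 with 6 UMIs in 4 barcodes and Mylk with 1, and the list was at 61.6 CPM against 12.8 CPM in other retained barcodes. Whether pericyte RNA came with endothelial cells as attached fragments was not tested. Basement-membrane genes stood at 5436 CPM against 2047 CPM, led by Sparc (343 UMIs in 71 barcodes), and caveola genes at 1610 CPM against 472 CPM. Of the caveola genes, Cav1, Cav2, Ptrf and Sdpr are also on the pan-endothelial list.

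The adhesion and immediate-early lists stood lower outside the mixed kinds than in all 90 barcodes, and the interferon and antioxidant lists stood higher. Adhesion and activation genes summed to 6896 CPM in the 90 barcodes and to 4151 CPM outside the mixed kinds, against 4007 CPM elsewhere. The leukocyte adhesion molecule Vcam1, and the selectins Sele and Selp, were at 0. Immediate-early genes, transcribed within minutes of stimulation or dissociation, summed to 25810 CPM and to 9589 CPM outside the mixed kinds, against 13410 CPM elsewhere and 46240 CPM in microglial barcodes. Interferon-response genes summed to 2850 CPM and to 4502 CPM outside the mixed kinds, against 1988 CPM elsewhere. Ly6e, which is also on the pan-endothelial list, gave 120 of the 324 interferon-list UMIs in the 90 barcodes. Antioxidant and metallothionein genes summed to 14640 CPM and to 18480 CPM, against 20370 CPM elsewhere. Of the necroptosis genes that Necrostatin-1s bears on, Ripk1 had 5 UMIs in 5 barcodes, Mlkl 1, Ripk3 0 and the tumour necrosis factor receptor Tnfrsf1a 15 in 11. None of the 16 genes of that list passed the filter on low counts, so they were not compared between groups.

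**Figure D4:**
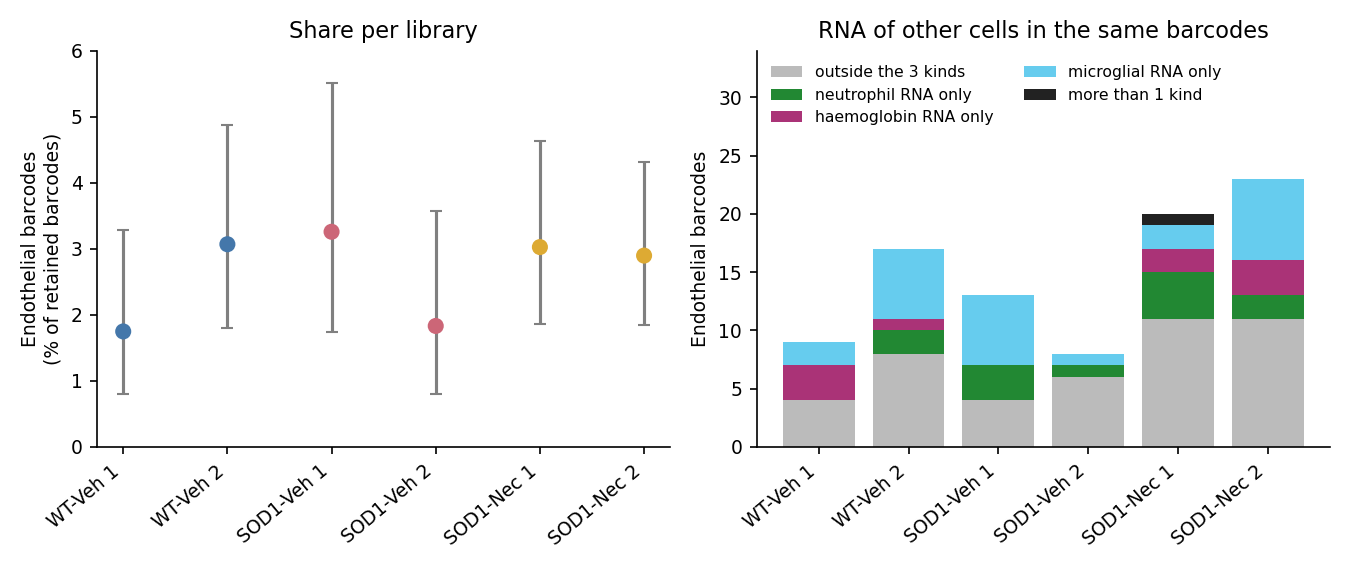
Left, endothelial barcodes as a percentage of retained barcodes per library, with exact 95% binomial intervals. Right, number of endothelial barcodes per library by the other RNA they carry. The intervals of all 6 libraries overlap, and 4 to 11 barcodes per library lie outside the 3 mixed kinds.

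The share of endothelial barcodes did not separate the groups. In the WT-Veh libraries it was 1.75% (9 of 515) and 3.07% (17 of 554). In the SOD1-Veh libraries it was 3.26% (13 of 399) and 1.83% (8 of 437), and with Necrostatin-1s 3.03% (20 of 661) and 2.90% (23 of 794). The exact 95% (Clopper-Pearson) intervals, which cover counting error only, ran from 0.802% to 3.29% at WT-Veh 1 and from 1.75% to 5.51% at SOD1-Veh 1. The WT-Veh and SOD1-Veh libraries interleaved, and both SOD1-Nec libraries lay between them. Group means were 2.41% ± 0.934, 2.54% ± 1.01 and 2.96% ± 0.0912 (SD, n = 2 each). Exact two-sided permutation tests gave p = 0.667 for SOD1-Veh against WT-Veh (a difference of 0.136 points), p = 1 for SOD1-Nec against SOD1-Veh (0.417 points) and p = 1 for SOD1-Nec against WT-Veh (0.553 points). With 2 libraries a group the smallest p that test allows is 0.333. Between libraries numbered 1 the first difference was 1.51 points and between those numbered 2 it was -1.24 points.

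Mixing differed among libraries. Haemoglobin genes took 23.8% and 3.27% of the UMIs of endothelial barcodes from WT-Veh, but 0.262% and 0.480% of those from SOD1-Veh. For SOD1-Nec the values were 6.22% and 2.61%. They took 11.6% to 16.8% in the other retained barcodes of the 6 libraries. Neutrophil genes took 0.0768% and 4.49%, 3.17% and 13.2%, and 6.99% and 5.59% in the same order, and the microglia list 0.547% and 1.39%, 2.49% and 0.431%, and 0.445% and 1.75%. Outside the mixed kinds lay 4 and 8 barcodes of WT-Veh, 4 and 6 of SOD1-Veh, and 11 and 11 of SOD1-Nec.

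Gene levels were compared between groups on UMIs summed per library. The filter on low counts left 347 genes, of which 9 were on the pan-endothelial list. Selection genes that passed it stayed in the fit and in the adjustment, but their results are not given. The quasi-likelihood test of edgeR with Benjamini-Hochberg adjustment called 0 of 347 (0%) in each of the 3 comparisons. Unadjusted p fell below 0.05 for 12 genes (3.46%) in SOD1-Veh against WT-Veh, 16 (4.61%) in SOD1-Nec against SOD1-Veh and 7 (2.02%) in SOD1-Nec against WT-Veh. DESeq2 called 5, 0 and 0 genes, the 5 being Sod1 and the haemoglobin chains Hba-a1, Hba-a2, Hbb-bs and Hbb-bt. The values below describe genes that did not pass the adjusted test unless stated otherwise, and each pair of comparisons shares a group of libraries. In these pooled sums, fewer endothelial transcripts per cell and more RNA of other cells cannot be told apart.

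**Figure D5:**
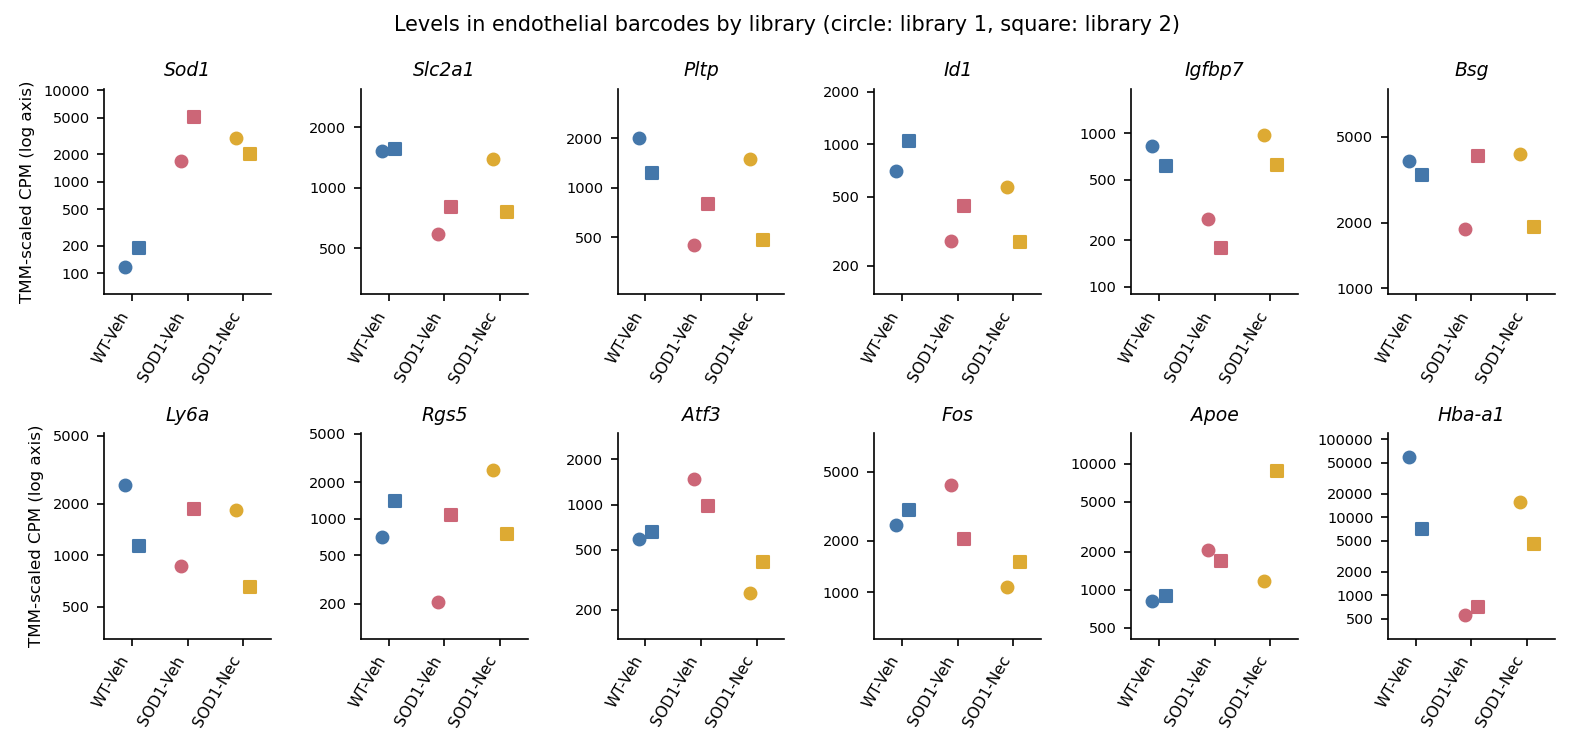
Level of 12 genes in endothelial barcodes by library, in TMM-scaled CPM on log axes (circles library 1, squares library 2). Sod1 is higher in all 4 SOD1-G93A libraries, Slc2a1 and Igfbp7 are lower in both SOD1-Veh than in both WT-Veh libraries, and Hba-a1 is lowest in SOD1-Veh.

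Sod1 checks the genotype labels. Its level in CPM scaled by edgeR's TMM library factors (TMM-scaled CPM) was 118 and 188 CPM in WT-Veh, 1696 and 5151 CPM in SOD1-Veh, and 3032 and 2026 CPM in SOD1-Nec, so all 4 SOD1-G93A libraries lay above both wild-type libraries. The counts under this symbol cannot be divided between the mouse gene and the human transgene. The log2 fold change was 4.31 ± 0.83 (SE) for SOD1-Veh against WT-Veh (edgeR, adjusted p = 0.195) and 3.90 ± 0.82 for SOD1-Nec against WT-Veh (edgeR, adjusted p = 0.368). DESeq2 called the first, at 4.43 with an adjusted p of 0.00599, and edgeR called it without SOD1-Veh 1 (4.84) or without SOD1-Veh 2 (3.43). Only 5 UMIs underlie the wild-type level. Other retained barcodes showed the same contrast, at 180 and 249 CPM in WT-Veh and 3860 to 5531 CPM in the SOD1-G93A libraries, and barcodes under 100 genes differed by 5.40 on the log2 scale. SOD1-Nec and SOD1-Veh overlapped (log2 fold change -0.42 ± 0.63).

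For the glucose transporter Slc2a1, the TMM-scaled level was 1527 and 1555 CPM in WT-Veh and 588 and 799 CPM in SOD1-Veh. Both SOD1-Veh libraries lay below both WT-Veh libraries, with a log2 fold change of -1.18 ± 0.54 (edgeR, adjusted p = 0.743). SOD1-Nec libraries were at 1388 and 756 CPM and overlapped with SOD1-Veh. Outside the mixed kinds the unscaled level was 3886 and 2663 CPM in WT-Veh, 754 and 1403 CPM in SOD1-Veh, and 2038 and 1570 CPM in SOD1-Nec, from 4 to 24 UMIs per library. There the 3 groups did not overlap, WT-Veh being highest and SOD1-Veh lowest, and the log2 fold change for SOD1-Veh against WT-Veh was -1.56 (edgeR, adjusted p = 0.482). The lowest value, of SOD1-Veh 1, rested on 4 UMIs from 4 barcodes, 1 of which held 72.0% of their UMIs. The order of Slc2a1 without that barcode was not tested.

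Igfbp7 was lower in both SOD1-Veh libraries than in any other. Its TMM-scaled level was 822 and 612 CPM in WT-Veh, 277 and 178 CPM in SOD1-Veh, and 977 and 618 CPM in SOD1-Nec, from 10 UMIs in SOD1-Veh against 20 and 37. The log2 fold change was -1.51 ± 0.63 for SOD1-Veh against WT-Veh (edgeR, adjusted p = 0.743) and 1.69 ± 0.60 for SOD1-Nec against SOD1-Veh (edgeR, adjusted p = 0.995). Outside the mixed kinds the unscaled level was 2119 and 1065, 377 and 0, and 1104 and 2355 CPM. These values rest on 6 and 6, 2 and 0, and 13 and 12 UMIs. Of the 4 SOD1-Veh 1 barcodes there, 1 held 72.0% of their UMIs.

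Pltp and the BMP target Id1 were also lower in both SOD1-Veh libraries than in both WT-Veh libraries without passing the test, whereas Id3 and Bsg overlapped. Pltp was at 1997 and 1225 TMM-scaled CPM in WT-Veh and 450 and 799 CPM in SOD1-Veh (log2 fold change -1.39 ± 0.69). Id1 was at 705 and 1036 CPM against 277 and 444 CPM (-1.37 ± 0.65). Id3, a relative of Id1, was at 352 and 565 CPM against 0 and 622 CPM (-0.95 ± 1.40). Bsg was at 3876 and 3345 CPM in WT-Veh and 1869 and 4085 CPM in SOD1-Veh (-0.29 ± 0.64). Of the 9 pan-endothelial genes tested, 8 had a negative and 1 a positive log2 fold change in SOD1-Veh against WT-Veh, with a median of -0.87 against 0.08 over the 347 genes tested. Both SOD1-Veh libraries lay below both WT-Veh libraries for 5 of the 9, against 18.2% of all tested genes. In SOD1-Nec against SOD1-Veh 7 of the 9 were positive, with a median of 0.66 against -0.07, and both SOD1-Nec libraries lay above both SOD1-Veh libraries for 2, against 15% of all tested genes. These 2 comparisons share the SOD1-Veh libraries. In SOD1-Nec against WT-Veh 6 of the 9 were negative (median -0.25 against 0.04).

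The pan-endothelial sum outside the mixed kinds was 38860 and 27160 CPM in WT-Veh, 15080 and 25820 CPM in SOD1-Veh, and 29720 and 28060 CPM in SOD1-Nec. The low value of SOD1-Veh 1 rested on 1 of its 4 barcodes, which held 72.0% of their UMIs and had 1.73% of its own from microglial genes. Without the deepest barcode of each library the sum was 27090 and 17520 CPM in WT-Veh, 30960 and 25360 CPM in SOD1-Veh, and 22720 and 26630 CPM in SOD1-Nec, so SOD1-Veh was not lower there. No test was made of the sum.

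Immediate-early genes had mostly positive log2 fold changes in SOD1-Veh against WT-Veh (15 of 18 tested, median 0.37 against 0.08 over all tested) without passing the test. Both SOD1-Veh libraries lay above both WT-Veh libraries for 3 of the 18, against 16.4% of all tested genes. The summed level of the list was 12480 and 26910 CPM in WT-Veh, 45360 and 11300 CPM in SOD1-Veh, and 12690 and 27930 CPM in SOD1-Nec, so SOD1-Veh held both the highest and the lowest library. Atf3, a stress-induced transcription factor, was at 587 and 660 TMM-scaled CPM in WT-Veh, 1488 and 977 CPM in SOD1-Veh, and 257 and 412 CPM in SOD1-Nec. The groups did not overlap, and the log2 fold change in SOD1-Nec against SOD1-Veh was -1.86 ± 0.51 (edgeR, adjusted p = 0.995). Fos was at 4188 and 2043 CPM in SOD1-Veh and 1079 and 1511 CPM in SOD1-Nec (-1.27 ± 0.58), and the flow-responsive factor Klf2 at 2873 and 1243 CPM against 925 and 962 CPM (-1.15 ± 0.57). Of 18 immediate-early genes tested, 15 were negative in SOD1-Nec against SOD1-Veh (median -0.32), and for 4 of 18 the libraries did not overlap, against 12.7% of all tested genes. Outside the mixed kinds Atf3 had 5 UMIs in all and Klf2 25. In those barcodes Atf3 was at 0 in both SOD1-Veh libraries, so the order seen for Atf3 over the 90 barcodes was not seen there. Microglia-mixed barcodes numbered 6 and 1 for SOD1-Veh but 2 and 7 for SOD1-Nec, and their part in the Atf3 and Fos values was not tested beyond this.

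Apoe and Mgp rested on single barcodes. Apoe was at 822 and 895 TMM-scaled CPM in WT-Veh and 1182 and 8689 CPM in SOD1-Nec (log2 fold change 2.51 ± 0.89, edgeR adjusted p = 0.985), and 218 of its 381 UMIs came from 1 barcode. Without the mixed barcodes the value was 1.28. Mgp was at 3641 and 1460 CPM in WT-Veh, 0 and 355 CPM in SOD1-Veh, and 308 and 0 CPM in SOD1-Nec. A single barcode held 31 of its 72 UMIs. Outside the mixed kinds the unscaled Mgp level was 0 and 5503 CPM in WT-Veh, 0 and 842 CPM in SOD1-Veh, and 509 and 0 CPM in SOD1-Nec. The groups overlapped there. Fibroblast genes, which include matrix genes such as Dcn, were at 1728 and 98.7 CPM in WT-Veh, 0 CPM in both SOD1-Veh libraries, and 0 and 276 CPM in SOD1-Nec. A WT-Veh 1 barcode of 4146 UMIs held 40 UMIs of the arterial list and 18 of the 27 fibroblast UMIs. A WT-Veh 2 barcode of 932 UMIs held 32 UMIs of the arterial list and 2 of the pan-endothelial list. The part of these barcodes in the Mgp values was not tested. Cald1, an actin-binding protein of contractile and endothelial cells, was spread more evenly, with 56 UMIs in 33 barcodes. It was at 118 and 188 CPM in WT-Veh, 415 and 355 CPM in SOD1-Veh, and 822 and 653 CPM in SOD1-Nec, so the groups did not overlap (SOD1-Nec against WT-Veh 2.13 ± 0.77, edgeR adjusted p = 0.985). Only 1 and 4 UMIs underlie the WT-Veh levels of Cald1.

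Haemoglobin and neutrophil genes also differed widely between libraries. Hba-a1 was at 59440 and 7114 TMM-scaled CPM in WT-Veh, 554 and 710 CPM in SOD1-Veh, and 15470 and 4568 CPM in SOD1-Nec. Its log2 fold change was -5.72 ± 1.37 for SOD1-Veh against WT-Veh (edgeR, adjusted p = 0.245). Without the 10 haemoglobin-mixed barcodes it was 0.35. The limit that defines them counts these same transcripts, so leaving them out had to lower the WT-Veh level and is no test. Such barcodes numbered 3 and 1 for WT-Veh, 0 for either SOD1-Veh library and 3 for each of SOD1-Nec. The chains Hba-a1 and Hba-a2 are 89.6% identical over their last 300 bases, and Hbb-bs and Hbb-bt 86.2%, so they are not independent. The neutrophil alarmin S100a8 was at 470 and 12390 CPM in WT-Veh, 8029 and 53290 CPM in SOD1-Veh, and 23640 and 18130 CPM in SOD1-Nec. Of the 6 neutrophil genes tested, 6 were positive in SOD1-Veh against WT-Veh (median 1.84), but the libraries overlapped for each and 0 passed the test.

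An interaction term asked whether a group difference in endothelial barcodes differed from that in the other retained barcodes of the same libraries. Of 6415 genes tested with edgeR, 6 (0.0935%) passed for SOD1-Veh against WT-Veh and 4 (0.0624%) for SOD1-Nec against SOD1-Veh, where 124 (1.93%) and 114 (1.78%) had an unadjusted p below 0.05. The 4 haemoglobin chains Hba-a1, Hba-a2, Hbb-bs and Hbb-bt passed in both. For Hba-a1 the difference of log2 fold changes was -5.16 ± 0.80 (edgeR, adjusted p = 8.10e-07) in the first and 4.27 ± 0.79 (edgeR, adjusted p = 2.11e-04) in the second. The other two were Tpm1 and Igfbp5. For Tpm1, a tropomyosin, the level in endothelial barcodes rested on 15 UMIs, and the other retained barcodes moved from 68.9 CPM in WT-Veh to 1917 CPM in SOD1-Veh, where skeletal muscle genes took 1.09% and 2.11% of their UMIs. Igfbp5 had 0 UMIs in SOD1-Veh endothelial barcodes and 23 in WT-Veh, 14 of its 24 UMIs in 1 barcode. Without the mixed barcodes 0 genes passed in either comparison, with 15 and 30 genes at an unadjusted p below 0.05. Haemoglobin UMIs define 1 of the mixed kinds, so for the haemoglobin chains this outcome follows largely from the definition. Leaving out single libraries gave 0 to 12 genes in the first comparison (12 without WT-Veh 2 and 0 without SOD1-Nec 2) and 0 to 5 in the second (0 without SOD1-Veh 2, SOD1-Nec 1 or SOD1-Nec 2). For Sod1 the interaction was -0.29 ± 0.99 and for Slc2a1 -0.54 ± 0.97, neither of which passed.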

How the data were processed

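The deposited tables, 1 for each Drop-seq library of spinal cord, hold counts of UMIs by barcode and gene symbol, which the authors did not normalise as far as the whole-number values show. The build is mm9 per the submitters' processing notes, and the sources used here do not give the aligner, the annotation or how transgene reads were handled. Endothelial barcodes and gene lists were chosen with earlier results of these data known. Of 529 list symbols in 38 lists, 511 matched as written, 2 by synonym and 16 did not match.

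Counts of endothelial barcodes were summed per library (8 to 23 barcodes, 10424 to 25613 UMIs) over the 17042 shared genes and tested with edgeR 4.0.16 (R 4.3.3): filterByExpr, TMM, a quasi-likelihood fit by group over all 6 libraries, and Benjamini-Hochberg adjustment, calling genes at 0.05. The interaction was fitted with the library as a block, over sums of endothelial and other retained barcodes. DESeq2 1.42.0, library scalings, filters, selection limits and leaving out libraries served as alternatives. The common biological coefficient of variation was 0.492. Scripts were tested on simulated counts. Doublets were sought with Scrublet in scanpy 1.11.5 and kept. Microglial barcodes were retained barcodes outside the selection with at least 3 UMIs of at least 2 microglia genes.

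Genes named are the selection genes, up to 4 genes of each list with most UMIs, the 20 with the highest ratio to other retained barcodes, called genes with the largest change (with fewer than 10 calls, also the 5 each way, or 3 for interactions, with the smallest p), and a fixed set including Sod1, Slc2a1, Ripk1 and Apoe. Other list genes named at 0 or as identity markers were chosen after their values were seen. No gene positions are given for the deposited symbols. Promoter windows come from RefSeq on GRCm38.p6.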

Additional observations from a re-analysis of the deposited data

Results flagged for a closer look

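Group differences in endothelial barcodes differed from those in other retained barcodes of the same libraries for 6 genes in SOD1-Veh against WT-Veh and 4 in SOD1-Nec against SOD1-Veh, by edgeR's interaction term. In the first, the differences of log2 fold changes were -4.54 for Hbb-bs, -5.16 for Hba-a1, -4.95 for Hba-a2 and -4.94 for Hbb-bt. In the second they were 3.81 for Hbb-bs, 4.27 for Hba-a1, 4.39 for Hba-a2 and 3.46 for Hbb-bt. The haemoglobin-mixed barcodes numbered 3 and 1 for WT-Veh, 0 for either SOD1-Veh library and 3 for each of SOD1-Nec. They are defined by haemoglobin UMIs, which include these 4 genes, so their order is not a separate observation. For Tpm1 the value was -5.88 and the change lay in the other retained barcodes. For Igfbp5 the fitted value was -10.75, which rests on a group at 0 UMIs and is no bound.

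The gene rule was also met by barcodes that were not retained. It was met by 6 of 1394 barcodes above the mitochondrial limit (0.43%) and by 16 barcodes under 200 genes, 9 of them in WT-Veh 2.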

How the results depend on the processing

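The difference in endothelial share changed sign with several choices. For SOD1-Veh against WT-Veh it was -0.0099 points at a minimum of 100 genes, -0.200 at a mitochondrial limit of 10%, -0.0902 without barcodes holding 3 UMIs of another type, -0.173 without neutrophil-mixed barcodes and -0.128 after thinning to 500 UMIs. For SOD1-Nec against SOD1-Veh it was -0.0359 without Ly6c1 in the rule and -0.0469 at 100 genes, and for SOD1-Nec against WT-Veh -0.0568 at 100 genes and -0.0973 at the 10% limit. Leaving out 1 library gave -0.577 to 0.850, -0.297 to 1.13 and -0.107 to 1.21 points in these comparisons.

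Calls in SOD1-Veh against WT-Veh numbered 5 without microglia-mixed barcodes, 7 with no filter, 5 with DESeq2 and 0 to 12 leaving out 1 library (12 without SOD1-Veh 1, 5 without SOD1-Veh 2 and 4 without WT-Veh 2). In SOD1-Nec against SOD1-Veh there were 2 with no filter and 0 to 4 leaving out 1 library (4 without SOD1-Veh 1). In SOD1-Nec against WT-Veh there were 1 with no filter, 3 in a fit of its 4 libraries and 0 to 4 leaving out 1 library (4 without SOD1-Veh 1, 2 without SOD1-Veh 2). Interaction calls numbered 0 and 0 without mixed barcodes, and 0 against microglial barcodes in SOD1-Nec against SOD1-Veh. Leaving out 1 library gave 0 to 12 (12 without WT-Veh 2) and 0 to 5. The cause was not tested.

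Sod1 in SOD1-Veh against WT-Veh ranged from 3.43 to 4.84 (log2), and in SOD1-Nec against SOD1-Veh leaving out 1 library gave -0.94 to 0.54, the latter without SOD1-Veh 2. Hba-a1 in SOD1-Veh against WT-Veh was 0.35 without haemoglobin-mixed barcodes, a kind defined by haemoglobin UMIs, so this value is no test. With the replicate number as a block, 0 genes were called in each comparison, interaction calls were 6 and 3, and exact p for the shares was 1. Deviations from the group mean, matched by library number, correlated at -0.0603, 0.184 and -0.471 between groups. Tables with the same number list equal counts of genes, and a batch shared by number was not tested beyond this. The planned fit without barcodes holding another type was not run, since it leaves 3 barcodes. Depth limits single genes, since 8 to 23 barcodes a library gave 10424 to 25613 UMIs.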
